A study of Mus musculus with 7 samples.

Results

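Cluster 12 was 1 of the 19 groups into which the authors' deposited table divided the single cells of this series at clustering resolution 1, and it had been given the working name of neutrophil-like cells. Its members were the cells listed in cluster 12 that also had gene counts, 83 of the 4290 counted cells. The table listed 84 such cells, and 1 of them, from naive bone marrow, had no counts and was not used. The 9 genes given as its markers were Retnlg, S100a8, S100a9, Ngp, Lcn2, Wfdc21, Mmp9, Ltf and Cxcr2. These cells were sampled as part of a study of myeloid cells in C57/Bl6 mice that were either naive or carried LLC, a transplantable Lewis lung carcinoma, at day 14. Naive mice gave a library each of blood, bone marrow and spleen, and tumor-bearing mice gave a library each of blood, bone marrow, spleen and tumor. All cells had first been enriched by magnetic separation for CD11b, an integrin chain of myeloid cells, and had been stained with oligo-tagged antibodies, so that RNA and 47 surface tags were counted in the same cells. Since a tissue in a given state was sampled as 1 library, differences between libraries had no replicate check and no test was run, and the labels tie no tissues to a shared animal.

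Neutrophils are short-lived granulocytes that are made in the bone marrow and released into the blood. They build their granules in steps: primary granules with myeloperoxidase and elastase form first, secondary granules with lactoferrin, lipocalin and cathelicidin later, and tertiary granules with gelatinase last, while mature cells carry the chemokine receptor CXCR2 and large amounts of the calcium-binding pair S100A8 and S100A9. Mouse neutrophils carry the surface protein Ly-6G, whereas monocytes carry the receptor for colony-stimulating factor 1 (CD115, from Csf1r), the chemokine receptor CCR2 and Ly-6C. In tumor-bearing mice, neutrophils with suppressive properties are often grouped as polymorphonuclear myeloid-derived suppressor cells (PMN-MDSC).

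The 83 cells were spread over all 7 libraries, with 11 in blood of naive and 17 in blood of tumor-bearing mice, 14 in naive marrow, and 16 and 23 in spleen of naive and tumor-bearing mice. Tumor-bearing marrow and the tumor held 1 cell each, out of 57 and 1917 counted cells, and these 2 cells are described singly. Comparisons therefore rest on 81 cells of 5 libraries. The unique molecular identifiers (UMIs, counted RNA molecules) of cluster 12 came to 96955 and 101579 in blood of naive and tumor-bearing mice, 77200 in naive marrow, and 118129 and 173948 in spleen of naive and tumor-bearing mice. A single cell held between 854 and 19739 UMIs, and 10 cells held fewer than 2000. Cluster 12 was shallower than its surroundings in each of the 5 libraries, with median UMIs per cell from 4987 to 8791 against 9891 to 12561 in the other cells. The median mitochondrial share ran from 2.25% to 3.72%. No cell barcode of cluster 12 was found in another library, and 2 barcodes elsewhere were. Of the 84 listed cells, 84 made up a group of 84 at resolution 0.9 and 83 made up a group of 83 at resolution 0.7. At resolution 0.4, 82 lay in a group of 656 cells.

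The 9 markers were carried very unevenly, and the share of a cell's UMIs that fell on them ranged from 0 to 29.0% with a median of 0.573%. In the 2291 other cells outside the tumor the median was 0.0323%. In naive blood 4 cells of cluster 12 were under 0.1%, 2 lay from 0.1% to 1%, 4 from 1% to 5% and 1 above 5%. In tumor-bearing blood the same 4 counts were 3, 6, 7 and 1. In naive marrow 12 of 14 cells lay from 0.1% to 1%, 1 lay from 1% to 5%, and 1 was above 5%. In naive spleen 11 of 16 cells were under 0.1%, 2 lay from 1% to 5%, and 3 were above 5%. In tumor-bearing spleen 4 cells were under 0.1%, 11 lay from 0.1% to 1%, 4 from 1% to 5% and 4 above 5%. More cells of cluster 12 lay below 1% than above it in each of the 5 libraries, and each library had at least 1 cell above 5%.

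The highest shares stood in 3 cells: 29.0% in tumor-bearing blood, 25.1% in naive marrow and 24.9% in tumor-bearing spleen. These 3 cells held 55.6% of the 26962 marker UMIs of cluster 12 and 9.83% of all its UMIs. The next 3 cells were all from naive spleen, at 14.2%, 12.3% and 9.33%. They were followed by 7.82%, 7.11% and 6.19% in tumor-bearing spleen and 5.52% in naive blood. The cells just below 5% stood at 4.93% in naive blood and 4.67% in naive spleen. The 10 cells above 5% held 82.9% of the marker UMIs. They were deeper than the rest, with a median of 12448 UMIs against 5823, and no doublet caller was run, so the part of doublets in them was not tested. At the other end, 23 cells were under 0.1% and 5 had no marker UMI.

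Shares of this size were also found outside the cluster. Among those 2291 other cells 66 were above 1% and 18 above 5%, with 16.5% as the highest value, and those above 5% lay in clusters 0, 1, 2 and 4 (8, 1, 5 and 4 cells). The median of cluster 12 stood above that of the other cells in each library, by a wide margin in blood and a narrow one elsewhere. It was 0.260% against 0.0173% in naive blood and 0.986% against 0.0329% in tumor-bearing blood. In marrow it was 0.748% against 0.420%, in naive spleen 0.0272% against 0.0202% and in tumor-bearing spleen 0.188% against 0.109%.

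**Figure D1:**
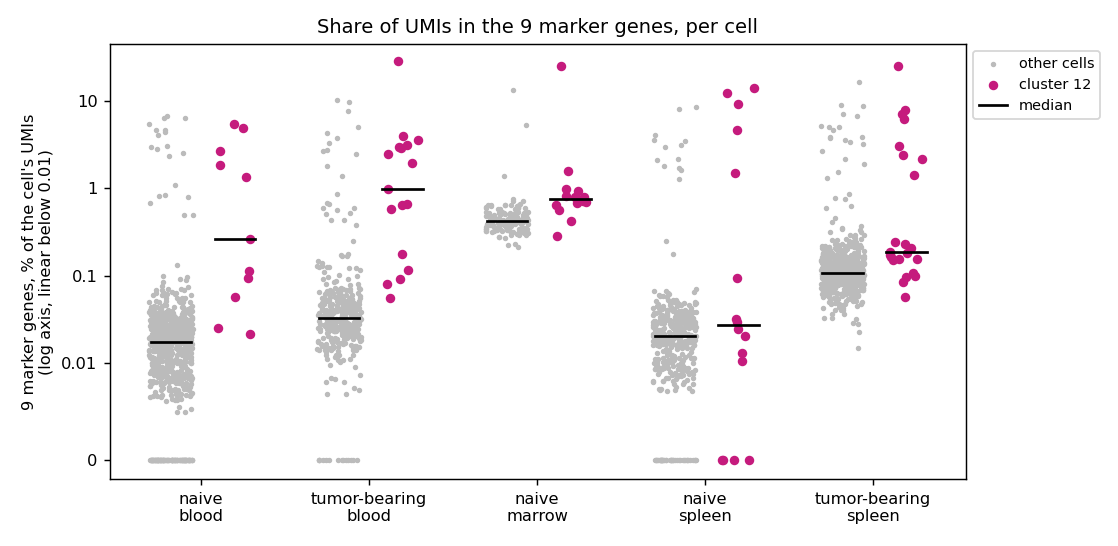
Share of each cell's UMIs that fell on the 9 marker genes, in percent on a log axis that is linear below 0.01, for the cells of cluster 12 (magenta) and the other cells (grey) of 5 libraries, with 1 point per cell and a bar at the median. A few cells of cluster 12 reach 24.9% to 29.0%, while its medians lie between 0.0272% and 0.986%.

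The name was then set against genes and surface proteins of monocytes. Csf1r RNA was found in 73 of the 83 cells, Ccr2 in 74, Ms4a6c in 78, and Ctss, a lysosomal cathepsin, in 81. Ly6c2 was found in 67 cells, F13a1 in 64, Fn1 in 70, Ms4a4c in 62, Cx3cr1 in 58, Irf8, a transcription factor of the monocyte line, in 55 and Klf4 in 51. All 10 cells above 5% held UMIs of Csf1r, Ccr2, Ms4a6c and Ctss, with medians of 6, 6, 11 and 18.5 UMIs. The 3 cells with the most marker UMIs held 12, 3 and 1 UMIs of Csf1r and 4, 18 and 4 of Ccr2. In all, 52 cells held 3 or more Csf1r UMIs. Among the other cells 99.4% had a Csf1r UMI and 93.2% a Ccr2 UMI. Free RNA in the droplets can give UMIs in cells that do not express a gene, and its part in these shares was not tested. Summed over cells, the 11 monocyte genes stood at 7228 counts per 1000000 UMIs (CPM) in cluster 12 and 9606 CPM in the other cells of the same libraries.

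Ly-6G on the surface did not set the cluster apart. The tag took a median of 54.3 of each 10000 antibody counts in cells of cluster 12 and 56.0 in the other cells of all 7 libraries, those of the tumor included. The ratio of its summed share in cluster 12 to that in the other cells was 1.13 and 1.004 in blood of naive and tumor-bearing mice, 1.18 in naive marrow, and 0.858 and 1.09 in spleen. The 3 cells with the most marker UMIs stood at 49.8, 32.1 and 74.2 per 10000. The highest value was 238 in cluster 12, in a tumor-bearing blood cell with only 168 antibody counts, and 328 in the other cells. Ly6g RNA came to 26 UMIs in 9 cells, 14 of them in those 3 cells, or 45.8 CPM against 2.71 CPM in the other cells. The tag was not raised even in the 3 cells with the most marker UMIs, so it could not decide the name for the rest. With a median of 0.573% of UMIs on the markers, the name did not describe most of these cells, and they are called cluster 12 below.

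**Figure D2:**
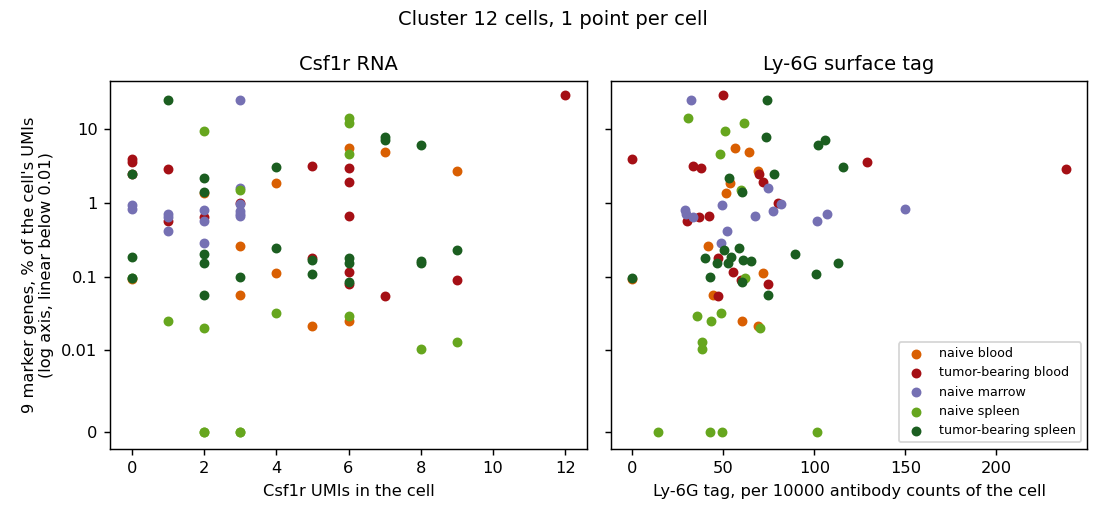
Share of UMIs in the 9 markers (percent, log axis, linear below 0.01) for each cell of cluster 12 in 5 libraries, against its Csf1r UMIs (left) and against its Ly-6G tag per 10000 antibody counts (right). All 10 cells above 5% lie at 1 Csf1r UMI or more. The 3 cells with the highest marker shares lie at 32.1 to 74.2 in Ly-6G. The highest value, 238, is that of a cell with 168 antibody counts.

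The stretch before the start of each marker gene was read from RefSeq (GRCm38.p6) for a pattern bound by C/EBP factors, which act in granulocyte development. The table held 7 of the 9 genes, all but Wfdc21 and Mmp9. The pattern TTGCNNAA was searched on both strands of the 250 bases before each RefSeq start. It was found in 5 of these 7 genes (71.4%: Lcn2, Ltf, Ngp, Retnlg and S100a9) and not in those of S100a8 and Cxcr2. In Lcn2 the match was not in the stretch left after exons were cut away. The markers were given with the cluster, so the share describes these 7 genes, and a role of C/EBP factors was not tested. The same pattern was held by 10.8% of all genes in that source (2930 of 27025), and among the genes measured in cluster 12 against other cells 9.02% (729 of 8086). Of the genes higher in cluster 12 by the rule given below, 7 of 33 held it (21.2%), and of those lower with enough depth 0 of 10. The 7 include the markers Lcn2, Retnlg and S100a9, so this share overlaps that of the markers and is not a separate observation. A match describes letters and not a bound site. The 4 promoters with a match outside annotated exons are shown 5′ to 3′ on the gene's strand, in GRCm38.p6 coordinates, with exons cut away and the match in capitals.
Retnlg (chr16:48872358-48872607, plus strand): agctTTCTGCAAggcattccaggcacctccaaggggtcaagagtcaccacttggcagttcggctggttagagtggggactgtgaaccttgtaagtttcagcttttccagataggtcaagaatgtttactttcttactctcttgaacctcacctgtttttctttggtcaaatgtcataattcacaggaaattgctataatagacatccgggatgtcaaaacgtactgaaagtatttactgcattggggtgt
S100a9 (chr3:90695722-90695971, minus strand): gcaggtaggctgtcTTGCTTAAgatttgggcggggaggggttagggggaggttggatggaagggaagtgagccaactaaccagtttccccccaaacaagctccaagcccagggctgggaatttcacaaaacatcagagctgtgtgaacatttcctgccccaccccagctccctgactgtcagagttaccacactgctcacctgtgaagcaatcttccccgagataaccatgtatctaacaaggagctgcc
Ngp (chr9:110419558-110419746, plus strand): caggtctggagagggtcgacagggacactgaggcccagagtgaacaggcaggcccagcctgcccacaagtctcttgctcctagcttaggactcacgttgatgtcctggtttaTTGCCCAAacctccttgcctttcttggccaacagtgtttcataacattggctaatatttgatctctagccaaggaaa
Ltf (chr9:111019042-111019270, plus strand): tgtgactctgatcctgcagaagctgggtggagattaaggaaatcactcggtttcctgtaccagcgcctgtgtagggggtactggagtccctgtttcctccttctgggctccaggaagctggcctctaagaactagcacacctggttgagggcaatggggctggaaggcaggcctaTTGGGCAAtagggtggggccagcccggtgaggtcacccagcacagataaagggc
The first base of the match lay 246 bases before the start in Retnlg, 236 in S100a9, 138 in Ngp and 75 in Ltf.

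Set against the other cells of the same libraries, cluster 12 held 8.96 to 24.5 times as much RNA of 7 of its 9 markers, and higher levels of Il1b, Pglyrp1 and 4 of 15 receptors for chemoattractants and growth factors. It held less RNA of 4 of 7 major histocompatibility complex (MHC) class II genes, of Tmem176a and Tmem176b and of 4 of 18 interferon-response genes. A gene was counted as higher or lower where it differed at least 2-fold in the same direction in all 5 libraries. Measured genes had 20 or more UMIs over both sides and UMIs in 5 or more cells. By this rule 40 of 10499 genes (0.381%) were higher and 702 (6.69%) lower. Most of the lower ones were scarce genes, for which few UMIs would be found in so few cells at the level of the other cells. Among the 3987 genes with at least 20 UMIs observed in cluster 12, or expected there from the level of the other cells, 27 (0.677%) were higher and 13 (0.326%) lower. The clusters had been made from these same counts, so all of this is description. Log2 ratios carry a pseudo-count of 10 CPM, folds do not, and intervals in parentheses are exact 95% Poisson intervals that cover counting error only.

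The 2 calcium-binding alarmins were the most abundant markers. S100a8 (chr3:90668978-90670035 in GENCODE vM21) stood at 10324 CPM in blood of naive and 29799 CPM in blood of tumor-bearing mice. It stood at 25842 CPM in naive marrow, and at 17295 and 21777 CPM in spleen of naive and tumor-bearing mice. In the other cells of these libraries, in the same order, it stood at 463, 1039, 1941, 654 and 1461 CPM. Pooled, S100a8 was 23.2-fold higher (22.7 to 23.7), and the libraries did not overlap between the 2 sides. The cells behind these sums differed widely, since the median cell held 4, 13, 11, 0.5 and 5 UMIs of S100a8 and the highest 443, 2577, 1865, 692 and 2451. S100a9 (chr3:90692632-90695721) was 20.1-fold higher (19.7 to 20.6). Of the S100a8 UMIs of the cluster 58.0% lay in the 3 highest cells, and of the S100a9 UMIs 52.0%.

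Retnlg (chr16:48872621-48874496), which encodes a resistin-like secreted protein, stood at 2022, 3170, 5596, 3488 and 1575 CPM in naive blood, tumor-bearing blood, naive marrow, naive spleen and tumor-bearing spleen. The other cells held 67.5, 151, 290, 54.1 and 196 CPM of it. It was 23.9-fold higher (22.5 to 25.4), with UMIs in 47 of the 83 cells, and the median cell held 0, 2, 2, 0 and 1. Lcn2, the siderophore-binding lipocalin of secondary granules, was 24.5-fold higher (22.2 to 27.0) and found in 42 cells. Wfdc21 was 22.3-fold higher (19.5 to 25.4), with UMIs in 25 cells. Mmp9, the gelatinase of tertiary granules, was 16.4-fold higher (14.0 to 19.1), with UMIs in 27 cells. Cxcr2, the chemokine receptor of mature neutrophils, was 8.96-fold higher (7.32 to 10.9), with UMIs in 25 cells.

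Ngp and Ltf missed the rule, and naive blood had no UMI of either in cluster 12. Ngp, a secondary granule protein, had 0, 151, 183, 1 and 191 UMIs in the order of libraries above, and 1 cell held 150 of the 151, 142 of the 183 and 187 of the 191. Of all Ngp UMIs in the cluster 90.04% lay in the 3 highest cells. For Ltf, lactoferrin, that share was 91.9%.

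How far these ratios rested on few cells was seen by leaving cells out. Without the 3 cells above 20%, the log2 ratio of S100a8 moved from 4.52 to 3.42, of Lcn2 from 4.34 to 2.51, of Wfdc21 from 4.06 to 2.42, of Ngp from 4.69 to 1.49 and of Ltf from 3.67 to 0.68. Without the 10 cells above 5%, S100a8 stood at 2.17, S100a9 at 2.28, Retnlg at 2.73, Mmp9 at 1.98 and Cxcr2 at 2.10. These pooled ratios stayed above 0, but with the 3 cells left out 0 of the 9 markers was still 2-fold higher in all 5 libraries. S100a8 fell short in naive marrow only, at 1.13-fold. In naive blood, tumor-bearing blood, naive spleen and tumor-bearing spleen it stood at 22.3, 5.25, 26.4 and 5.93-fold. Retnlg, S100a9, Lcn2, Mmp9 and Cxcr2 also fell short in naive marrow only. Wfdc21 and Ltf fell short in naive marrow and in other libraries as well, and Ngp in libraries other than naive marrow. Naive blood and naive spleen held none of the 3 cells. The number of higher genes was 40 with all cells, 10 without the 3 cells and 6 without the 10 cells, with 9 and 2 of the 40 among them. It was 3 without the 52 cells that held 3 or more Csf1r UMIs. Leaving out naive marrow, so that 4 libraries had to differ, raised it to 68, with all 40 among them.

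Detection was compared at equal depth by thinning each cell to 2000 UMIs and leaving out shallower cells, 10 of them in cluster 12. Retnlg was then found in 46.5% of cluster 12 cells and 8.505% of the other cells, where without thinning the shares were 56.8% and 26.4%. Lcn2 was found in 33.8% against 5.42% (51.9% and 16.4% unthinned). Retnlg and Lcn2 are named because their thinned detection was at least 15 points higher in all 5 libraries, which the other markers did not reach. Wfdc21 was found in 19.7% against 3.54%, with 0% against 1.25% in naive blood. Csf3r, the receptor for granulocyte colony-stimulating factor, was found in 50.7% against 26.5%. Its level was 490 CPM against 161 CPM, and it missed the rule since it was 1.65-fold higher in naive marrow.

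Granule genes did not move as 1 block. Of the 12 secondary granule genes 2 were higher, Wfdc21 and Lcn2, both among the 9 markers, and 0 were lower. The median log2 ratio was 1.59 against -0.07 over all genes measured. Without the 3 highest cells 0 of 11 secondary granule genes were higher, with a median of 0.86. Of the 5 tertiary granule and secretory vesicle genes 4 were higher, among them the formyl peptide receptors Fpr1 (11.7-fold, 7.75 to 17.3) and Fpr2 and the metalloprotease Adam8 (5.32-fold). Mmp9, itself a marker, was also among the 4. Without the 3 highest cells, 1 of the 5 was higher. Of the 6 primary granule genes, Mpo, Elane, Ctsg, Ms4a3 and Bpi had 0 UMIs in cluster 12, and Prtn3 stood at 15.9 CPM against 20.5. Ctsg was 1 of the scarce genes counted as lower, at 1.65 CPM in the other cells, a level that would give 0.937 UMIs in all of cluster 12, so a difference was not detectable at this depth. Of the 18 genes of mature circulating neutrophils 8 were higher, with a median of 1.98. They included Hdc, the histamine-forming decarboxylase (9.33-fold), Mxd1, a partner of Max (6.73-fold), and Slpi, an inhibitor of proteases (1030 against 249 CPM). The markers Retnlg and Cxcr2 were also among the 8. Without the 3 highest cells 3 of the 18 remained higher, and without the 10 cells 2.

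Il1b and Pglyrp1 met the rule also without the 10 highest cells. Il1b (chr2:129364570-129371139), which encodes interleukin-1 beta, stood at 660 and 581 CPM in blood of naive and tumor-bearing mice, 246 CPM in naive marrow, and 728 and 443 CPM in spleen. The other cells held 124, 207, 23.9, 87.1 and 137 CPM. It was 4.15-fold higher (3.68 to 4.67), its log2 ratio was 1.97 with all cells and 1.84 without the 10 highest, and it met the rule in both. In naive marrow its UMIs came from few cells, as given below. Pglyrp1 (chr7:18871331-18890459), a peptidoglycan recognition protein of granules, stood at 351, 650, 635, 635 and 765 CPM against 108, 176, 97.7, 119 and 156. It was found in 58 of the 83 cells. It was 4.78-fold higher (4.27 to 5.33) with all cells, and 448 CPM against 132 CPM without the 10 highest, where it still met the rule. The other cells include cells rich in it: Pglyrp1 stood at 629 CPM in cluster 12, 103 CPM in cluster 0 and 347 CPM in cluster 4. C5ar1, the receptor for complement C5a, was 4.97-fold higher (3.95 to 6.19) and met the rule without the 3 but not without the 10 cells. Of the 15 receptors for chemoattractants and growth factors 4 were higher and 0 lower, which became 2 higher without the 3 highest cells and 0 without the 10. Of 14 PMN-MDSC genes 3 were higher (S100a8, S100a9 and Il1b) and 0 lower, where 0.381% of all genes measured were higher. S100a8 and S100a9 are markers given with the cluster, and without the 3 highest cells 1 of the 14, Il1b, was higher. Of 11 chemokines and cytokines Il1b was higher. Cxcl2, a ligand of CXCR2, was counted as lower with 0 UMIs, but stood at 1.93 CPM in the other cells, which would give 1.09 UMIs in cluster 12, so here too the depth could not show a difference. Of 6 S100 genes S100a8 and S100a9 were higher, and 0 without the 3 highest cells. The 13 myeloid transcription factors (median -0.07), the 9 integrins, the 6 subunits and partners of the NADPH oxidase (median 0.26), the 8 survival genes, the 11 Fc and pattern receptors and the 12 hypoxia and glycolysis genes had no member past the rule.

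MHC class II genes were lower in cluster 12, with 4 of 7 measured genes past the rule and a median log2 ratio of -2.94. H2-Aa (chr17:34282744-34287823), an alpha chain, stood at 30.9, 88.6, 0, 50.8 and 34.5 CPM in naive blood, tumor-bearing blood, naive marrow, naive spleen and tumor-bearing spleen. The other cells stood at 627, 791, 153, 588 and 680 CPM, so the 2 sides did not overlap. Pooled, H2-Aa was 14.99-fold lower (10.1 to 23.4), H2-Eb1 12.4-fold and H2-Ab1 8.75-fold (6.29 to 12.6). Cd74, the invariant chain, was 8.09-fold lower (7.04 to 9.35), and 72 of its 198 UMIs lay in 1 naive spleen cell. The same 4 genes were past the rule without the 3 cells and without the 10 cells. The other cells include cells rich in MHC class II RNA: H2-Aa stood at 42.3 CPM in cluster 12, 60.7 CPM in cluster 0 and 526 CPM in cluster 4. In cluster 12 against cluster 0, H2-Ab1 stood at 61.6 against 59.4 CPM, H2-Eb1 at 24.7 against 31.3 and Cd74 at 349 against 517. The low class II level was thus shared with cluster 0 and not particular to cluster 12. Thinned to 2000 UMIs, H2-Aa was found in 2.82% of cluster 12 cells against 22.0%.

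Tmem176b and Tmem176a, neighbouring genes for membrane proteins of antigen-presenting cells, were lower by 7.88-fold (5.41 to 11.96) and 10.2-fold. For Tmem176b cluster 12 stood below clusters 0 and 4 alike, with 47.6 CPM against 246 and 232. It was found in 8.45% of thinned cells against 39.8%. Of the 18 interferon-response genes 4 were lower and 0 higher, with a median of -0.97. Ifit3 stood at 8.81 CPM against 101 CPM, and Ifit2 had 0 UMIs against 36.6 CPM, both encoding interferon-induced tetratricopeptide proteins. The reference mattered here too, since Ifit3 stood at 9.68 CPM in cluster 0 and Ifit2 at 2.46.

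**Figure D3:**
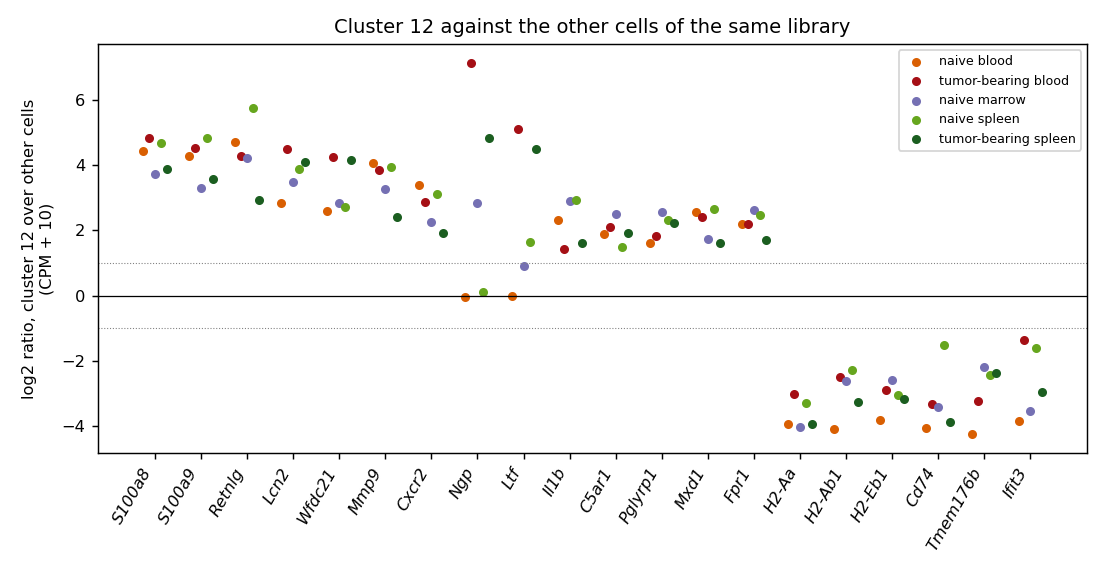
Log2 ratio of cluster 12 over the other cells of the same library (pseudo-count 10 CPM) for 20 genes, with 1 point per library in 5 colours and dotted lines at 2-fold. Ngp and Ltf scatter from about 0 to far above the line with the library, while H2-Aa, H2-Ab1, H2-Eb1 and Cd74 lie below it in all 5.

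Genes of other cell types were set beside these results, and their part in them was not tested. None of the 11 monocyte genes was past the rule in either direction (median -0.39). The macrophage list stood at 141 CPM against 171 CPM, with 1 of 5 genes lower, and the dendritic cell list at 12.3 against 53.1, with 2 of 4 lower. The B cell list stood at 231 CPM against 348 CPM, with no gene past the rule. Of the T cell list no gene was measured, and it stood at 10.6 CPM against 0.825 CPM, with UMIs in 5 cells of cluster 12. The eosinophil list stood at 5.28 CPM against 2.004 CPM, with UMIs in 3 cells, and Ccr3, Epx and Il5ra were at 0. The 6 basophil and mast cell genes had 0 UMIs in cluster 12. None of the 2 NK cell, 1 platelet and 4 red cell genes measured was past the rule. Genes of tissue dissociation stress stood at 472 against 519 CPM, with 0 of 7 past the rule. Of 12 proliferation genes 0 were higher and 2 lower. Those 2, Stmn1 and Tyms, had 0 UMIs in cluster 12, as did the lower dendritic cell genes Clec9a and Siglech. Neither they nor C1qc, the lower macrophage gene, were among the 13 lower genes with 20 UMIs observed or expected. These calls therefore rest on scarce genes, and 6.69% of all genes measured were counted as lower.

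The antibody tags moved little. None of the 47 tags (0%) was 1.5-fold higher in all 5 libraries, and none (0%) was 1.5-fold lower. The pooled ratios furthest from 1 were those of the class II antibody I-A/I-E (0.582), the Fc receptor CD16.2 (1.40) and CD115 (0.780). I-A/I-E stood at 0.507, 0.466, 0.923, 0.794 and 0.559 of the other cells in naive blood, tumor-bearing blood, naive marrow, naive spleen and tumor-bearing spleen, lower in 5 of 5 libraries like the class II RNA. CD16.2 stood at 1.92, 1.22, 1.32, 2.07 and 1.24, higher in 5 of 5. CD11b, the protein used for enrichment, stood at 1.26, 1.25, 1.17, 1.15 and 1.40. CD115, the product of Csf1r, was lower in 5 of 5 libraries, at 0.632 to 0.915 of the other cells.

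**Figure D4:**
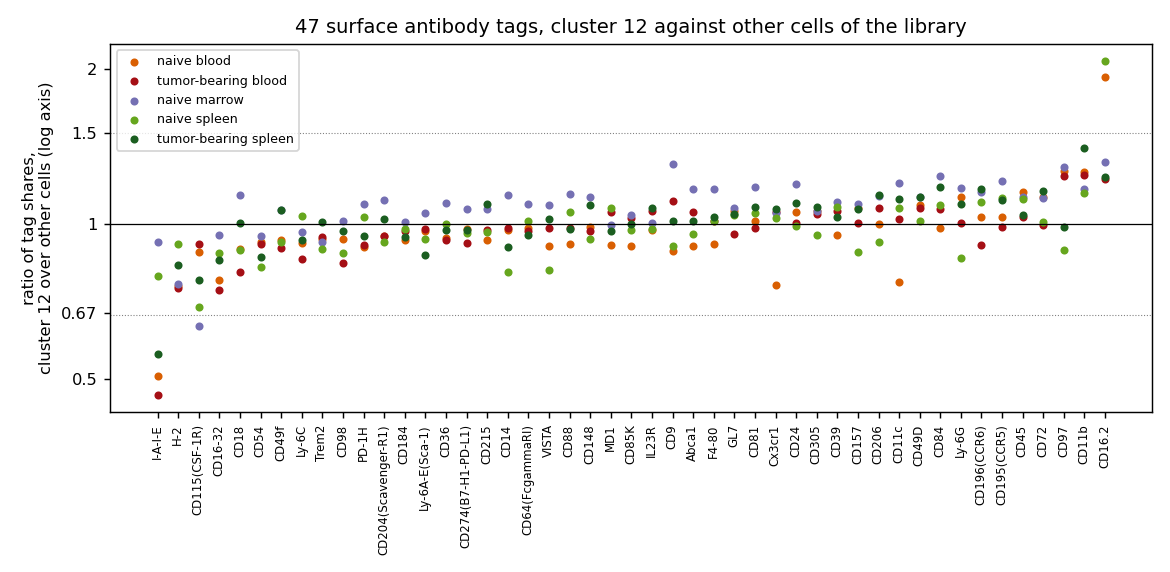
Ratio of each of the 47 antibody tags' share in cluster 12 to its share in the other cells, on a log axis, with 1 point per library in 5 colours and dotted lines at 1.5-fold either way. I-A/I-E lies lowest and CD16.2 highest, and no tag passes a dotted line in all 5 libraries.

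The 2 cells outside the 5 libraries differed from each other. The cell of tumor-bearing marrow held 8433 UMIs, of which 1.15% fell on the markers: 27 of S100a8, 53 of S100a9, 8 of Retnlg and 6 of Ngp, together with 3 of Csf1r and 11 of Ly6c2. The cell of the tumor held 2682 UMIs and none of the 9 markers, with 5 UMIs of Csf1r and 2 of Ccr2. A single cell in 1917 allows a share of 0.00132% to 0.290% of counted tumor cells (exact 95% Clopper-Pearson interval). Of the tumor's other cells 12 were above 1% in the markers, and the highest stood at 9.10%.

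Differences between libraries within cluster 12 were read next, tissue against tissue and tumor-bearing against naive. Measured genes had 20 or more UMIs over the pair of libraries and UMIs in 5 or more of the cells. A gene was called at 2-fold or more with all cells and again without the cell that held most of its UMIs. With 11 to 23 cells a library, many calls rest on a few UMIs, so each comparison is given with the number of calls whose counting interval lay wholly past 2-fold.

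Ngp and Camp, both secondary granule genes, had UMIs in cluster 12 of naive marrow and 0 UMIs in that of naive blood. Of 1290 genes, 21 (1.63%) were higher in naive marrow than in naive blood and 33 (2.56%) lower, with 3 and 4 intervals past 2-fold. Ngp had 183 UMIs in 12 of 14 marrow cells and 0 in 11 blood cells, at least 76.6-fold higher against a floor of 3 UMIs. Of these 142 lay in 1 cell, and without it the bound was 22.4-fold. Camp, the cathelicidin, had 146 UMIs in 13 cells against 0 and was at least 61.1-fold higher (21.8-fold without its highest cell). The other cells of the same libraries showed the same order, with 325 CPM of Ngp in marrow and 0.207 CPM in blood, and 398 and 0.103 CPM of Camp. At 2000 UMIs a cell, Ngp was found in 83.3% of cluster 12 cells of the marrow and 48.2% of its other cells, and the part of free RNA in these shares was not tested. Mmp8, the collagenase of neutrophils, had 58 against 11 UMIs, 44 of them in 1 cell. Of 10 secondary granule genes 3 were higher and 0 lower (median log2 ratio 1.84, against -0.06 over all genes).

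Fos and Dusp1 were lower in marrow than in blood. Fos, a subunit of the AP-1 transcription factor, stood at 64.8 CPM in marrow and 516 CPM in blood, 7.96-fold lower (3.19 to 25.6). Dusp1, a phosphatase induced with it, had 1 UMI against 24. In the other cells Fos stood at 45.8 and 240 CPM and Dusp1 at 10.2 and 81.2 CPM, the same direction. Fos and Junb were the 2 lower members among 8 transcription factors.

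Marrow and spleen of naive mice differed in 27 genes higher (1.91%) and 61 lower (4.31%) in marrow of 1414 measured, with 4 and 8 intervals past 2-fold. Ngp and Camp were higher in marrow again, with 183 against 1 and 146 against 2 UMIs. Ccr2 stood at 1813 CPM in marrow and 542 CPM in spleen, 3.35-fold higher (2.47 to 4.57), with UMIs in 12 of 14 and 15 of 16 cells. The other cells gave 1755 and 844 CPM. It was the 1 call among 11 monocyte genes. Of 12 genes of mature neutrophils 0 were higher and 3 lower in marrow: Cxcr2 (6 against 32 UMIs), Hdc (2 against 29) and Il1b (19 against 86, 2.96-fold). Those UMIs came from 1 to 2 cells in marrow and 5 to 9 in spleen, and Il1b turned to higher in marrow (log2 ratio 1.52) without the cells of 3 or more Csf1r UMIs. Dusp1 (1 against 35 UMIs) and Jund, another AP-1 member (10 against 88), were lower in marrow as well.

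Spleen and blood of naive mice differed in the fewest calls of the 6 pairs, with 29 of 1576 genes higher in spleen (1.84%) and 20 lower (1.27%). The 1 interval past 2-fold was that of Cd74, at 948 CPM in spleen and 165 CPM in blood (5.75-fold, 3.39 to 10.4). A single spleen cell held 72 of its 112 UMIs, and without it the level was 385 CPM. Without the cells of 3 or more Csf1r UMIs the direction turned (log2 ratio -0.60). The other cells of these libraries stood at 2746 and 2911 CPM. Lcn2 was 3.23-fold higher (1.81 to 6.13), with UMIs in 5 and 4 cells.

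In blood, tumor-bearing against naive, 26 of 1461 genes were higher (1.78%) and 31 lower (2.12%), with 2 and 1 intervals past 2-fold. Lcn2 had 220 UMIs in tumor-bearing and 15 in naive blood, 14.0-fold higher (8.30 to 25.4). Of these 181 lay in 1 cell, and without it the levels were 473 and 155 CPM. The other cells stood at 86.8 and 12.8 CPM, so the direction was shared. Ifitm1, an interferon-induced membrane protein, had 87 against 16 UMIs, 5.19-fold higher (3.02 to 9.48), and 590 against 165 CPM without its highest cell. Its UMIs lay in 8 of 17 and 4 of 11 cells. In the other cells it stood at 74.6 and 13.3 CPM. With Irf7, a transcription factor of the interferon response (236 against 82.5 CPM), it made up the 2 higher of 7 interferon-response genes. S100a8 was 2.89-fold higher over all cells, but 5458 against 10324 CPM without its highest cell, which turned the direction. Of 10 PMN-MDSC genes 1 was higher (Ifitm1) and 0 lower (median -0.01, against -0.05 over all genes).

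In spleen, tumor-bearing against naive, 53 of 2103 genes were higher (2.52%) and 31 lower (1.47%), with 4 and 1 intervals past 2-fold. Zbp1, a sensor of nucleic acids, had 45 UMIs in 15 of 23 cells against 4 in 4 of 16, 7.64-fold higher (2.79 to 29.2). The other cells stood at 238 and 168 CPM. Ahr, the aryl hydrocarbon receptor, had 21 UMIs in 10 cells against 1. Wfdc21 was 5.43-fold higher (3.44 to 9.01) and Ngp had 191 UMIs against 1, but single cells held 111 and 187 of them. Wfdc21 and Ngp were 2 of 9 markers, and 0 were lower. Cd74 stood at 190 CPM in tumor-bearing and 948 CPM in naive spleen, or 385 CPM without the naive spleen cell named above. None of 12 PMN-MDSC genes was called.

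Blood and spleen shared no call on tumor bearing. Of 1419 genes measured in both, 26 were higher in blood and 22 in spleen, with 0 in common, and 29 and 13 were lower, with 0 in common. With so few calls on either side, this count does not show that the tissues differ, and that difference was not tested. Chp1 was called in opposite directions.

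Within tumor-bearing mice, 65 of 2020 genes were higher in spleen than in blood (3.22%) and 40 lower (1.98%), with 3 and 2 intervals past 2-fold. S100a10, the annexin-binding partner in its family, stood at 903 CPM in spleen and 246 CPM in blood, 3.67-fold higher (2.39 to 5.84). Its UMIs lay in 19 of 23 and 12 of 17 cells, and the other cells stood at 835 and 718 CPM. It was the 1 call among 6 S100 genes. Fos was 3.66-fold lower in spleen (126 against 463 CPM), as in the other cells (62.2 and 328 CPM). Ifitm1 was 2.98-fold lower, at 287 against 856 CPM. Of the genes higher in spleen than in blood, Tagln2, an actin-associated protein, was called in both states, with 940 against 413 CPM in naive and 1230 against 463 CPM in tumor-bearing mice. That was 3.45% of the 29 naive calls, near the 3.22% of all genes called higher in tumor-bearing mice. It was 1.54% of the 65, near the 1.84% called higher in naive mice, so the shared call does not set Tagln2 apart. Wasf2, AI662270 and Lmo4 were called in opposite directions in naive and tumor-bearing mice.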

How the data were processed

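RNA and antibody-derived tags (ADT) were counted in single cells of 7 libraries, 1 per tissue and state, grouped by the tissue and disease state in the labels. Counts of UMIs for each gene and of ADT for each antibody were used as the authors deposited them. They were made with Cell Ranger on mm10, per the submitters' processing notes, while its version, the annotation and the filters on cells were not given in the sources used here. Cluster numbers, cell totals and a mitochondrial fraction (share of a cell's UMIs, 0 to 1) came from the authors' deposited metadata, per the file headers. The authors' deposited normalized ADT values, the natural log of 1 plus counts per 10000, served as an alternative.

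UMIs were summed over the cells of each side and scaled to CPM, with Python 3.11.15, numpy 2.4.6, pandas 2.3.3, scipy 1.17.1 and matplotlib 3.10.9. Folds carry exact Poisson (conditional binomial) and shares exact Clopper-Pearson 95% intervals, limited to counting error, so too narrow where few cells hold the UMIs. No test was run: each group was 1 library, and cluster 12 against other cells was not tested because the cells had been clustered on these counts. No cell was filtered and no doublet caller was run. Cluster members and the 29 gene lists were chosen with earlier results of these data known. Named genes were the 9 markers, the 12 highest and 8 lowest called genes, 6 and 6 between libraries, and the largest ratios of each list (up to 4, or 2 between libraries). Named by other choice, after their values were seen, were Csf3r, Ly6g, Mpo, Elane, Ms4a3, Bpi and the genes described for their counting interval or shared calls. The script was tested on simulated counts. Alternatives were thinning to 2000 UMIs, mean CPM per cell, at least 50 UMIs, another scaling, leaving out each library, and leaving out cells with 3 or more Csf1r UMIs or with many marker UMIs, the last added after seeing the data.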

Additional observations from a re-analysis of the deposited data

Results flagged for a closer look

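A few genes were called in opposite directions by the same contrast in 2 settings, each resting on few UMIs, and the difference between settings was not tested. Chp1, a calcineurin-like protein, had a tumor-bearing over naive log2 ratio of -1.16 in blood (6 against 14 UMIs) and 1.68 in spleen (18 against 3 UMIs). The spleen over blood ratio of Lmo4, a LIM-domain transcriptional cofactor, was -1.18 in naive mice (16 against 31 UMIs) and 1.77 in tumor-bearing mice (51 against 8 UMIs). For AI662270 it was -1.02 in naive mice (9 against 16 UMIs) and 1.73 in tumor-bearing mice (21 against 3 UMIs). For Wasf2, an actin regulator of the WAVE family, it was 1.91 in naive mice (17 against 3 UMIs) and -1.05 in tumor-bearing mice (9 against 12 UMIs).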

How the results depend on the processing

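No paired analysis was possible because the groups compared share fewer than 2 replicate numbers, which concerns the comparisons between libraries, while cluster 12 was read against the other cells within each library. Against the other cells, the 40 higher genes became 12 with cells thinned, 24 by mean CPM, 3 without cells of 3 or more Csf1r UMIs, 53 to 68 with 1 library left out, 10 without the 3 and 6 without the 10 highest cells. The 702 lower became 337 at 50 UMIs, 2147 without the Csf1r cells, 13 with 20 UMIs observed or expected, and 688 to 935 with 1 library left out. Between libraries, calls are given for thinning, mean CPM, at least 50 UMIs and no condition on the highest cell, in that order. Marrow over blood gave 6, 65, 4 and 54 higher and 7, 87, 10 and 66 lower. Naive spleen over blood gave 15, 72, 5 and 58 higher and 4, 89, 1 and 47 lower. Marrow over spleen gave 8, 71, 4 and 57 higher and 14, 93, 14 and 95 lower. Tumor-bearing over naive blood gave 11, 109, 4 and 49 higher and 8, 96, 3 and 54 lower. In spleen it gave 10, 127, 6 and 88 higher and 12, 74, 3 and 58 lower. Tumor-bearing spleen over blood gave 14, 168, 6 and 95 higher and 9, 155, 8 and 67 lower. Without the Csf1r cells, which left 2 to 9 cells a library, counts that moved were 65 higher and 18 lower (marrow over blood), 62 higher (naive spleen over blood), 16 lower (marrow over spleen), 13 and 5 (tumor-bearing over naive blood) and 32 higher (spleen). Without the 3 highest cells, marrow over blood gave 32 higher. Shares of cluster 12 without the Csf1r cells were 0.248% and 1.75% in blood of naive and tumor-bearing mice, 1.48% and 1.59% in their spleens, and 0% in tumor-bearing marrow and the tumor. Directions turned without those cells for Nhsl2 (-0.61, marrow over blood); Cd74 (-0.60), Mpc2 (3.82), Irf7 (-0.14) and Slc44a2 (-0.90, naive spleen over blood); Il1b (1.52, marrow over spleen); Ninj1 (4.10, tumor-bearing over naive blood); Hist1h2bc (1.005, tumor-bearing over naive spleen); and Pim1 (0.16), Ltb (2.83), St8sia4 (2.48) and Igkc (-0.55, tumor-bearing spleen over blood), and under thinning for C1qc (0.0475). The cause was not tested, and these alternatives leave fewer cells or UMIs. Of 1021 values of 121 named calls under the alternatives, 686 kept the call, 322 lost it and 13 changed direction. Tag counts were 0 in every alternative run. Depth limited what could be measured, with 77200 to 173948 UMIs a library in cluster 12.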
